A study of Gallus gallus with 4 samples.

Results

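The HOX genes of the chicken embryonic lung were taken as every gene of the RNA tables whose symbol was HOXA, HOXB, HOXC or HOXD followed by a number. This gave 37 of 24356 genes, of which 11 lay in the HOXA cluster, 10 in HOXB, 8 in HOXC and 8 in HOXD. The symbols of 32 of them stood in the table of embryonic day 13 (E13), and the other 5 (HOXC4, HOXC6, HOXC11, HOXC12 and HOXC13) were named from the E20 tables by the same gene identifier. In addition, 51 of 87491 chromatin accessibility peaks of E13 were assigned to HOX genes by the authors' peak annotation.

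HOX genes encode homeodomain transcription factors that sit in 4 clusters, numbered from 1 to 13 by their paralogue group. In vertebrates the low numbers lie at one end of each cluster and are active early and towards the head, and the high numbers lie at the other end and are active later and towards the tail. In the mouse lung the middle members, Hoxa5 above all, are known to act in the mesenchyme that surrounds the airways, and they work together with the cofactors of the PBX and MEIS families. The chicken HOXA cluster was located on chromosome 2, where the annotated start of HOXA13 is at 32682168, and HOXB on chromosome 27, from 6151929 (HOXB13) to 6287837 (HOXB1). HOXC was on chromosome 33 and HOXD on chromosome 7 (build galGal6). The members with the clearest patterns below are HOXA3 (ENSGALG00000027925), HOXA5 (ENSGALG00000025929, start 32624723), HOXB3 (ENSGALG00000043219, start 6260733), HOXB4 (ENSGALG00000000284, start 6243545), HOXB5 (ENSGALG00000034907, start 6226468), HOXB7 (ENSGALG00000032740, start 6207771) and HOXD8 (ENSGALG00000037272, start 16292720).

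Lungs of wild-type chicken (Gallus gallus) embryos were dissociated, stained and sorted. At E13, the sorted populations were combined in about equal shares, and RNA and open chromatin were read from the same nuclei (multiome). At E20, 1 single-cell library was labelled epithelial cells and 1 held lung cells without immune (CD45-positive) cells. The labels give nuclear RNA as the molecule of the E20 epithelial library too, and total RNA for the CD45-negative library. Each group is therefore 1 library, no p-value is given, and intervals are at the 95% level, exact except for mean paralogue numbers, and cover counting error only. The numbers of embryos behind each library were not given in the sources used here.

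After filtering there were 7038 nuclei at E13, and 5186 and 2684 cells in the E20 epithelial and CD45-negative libraries, with a median of 4218.5, 4482.5 and 3504.5 unique molecular identifiers (UMIs, counted RNA molecules) per barcode. The E20 libraries shared 5 barcodes, and neither shared any with E13. In the library labelled epithelial, the EPCAM-marked clusters were 36.8% of the kept cells and the red blood cell clusters 22.8%, against its label. A PTPRC-marked group (PTPRC encodes CD45) was found at E13 and in the E20 epithelial library, and none in the CD45-negative library. Mitochondrial genes gave a median of 42.7% of UMIs at E13, against 7.46% and 3.62% at E20, and levels are given as UMIs per 1000000 UMIs of a group (CPM), mitochondrial UMIs included.

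Cells were grouped by clusters, found without HOX genes, that carried a mark: EPCAM (epithelium), KDR (endothelium), FGF10, POSTN and TRPC6 (kinds of mesenchyme) or PTPRC (blood-borne immune cells). At E20 the highest POSTN level lay in the TRPC6-marked clusters, so no group of its own carried POSTN there, and collagen-rich clusters with no mark were kept as a further mesenchymal group. "Mesenchymal" below pools the FGF10-, POSTN- and TRPC6-marked and the collagen-rich clusters.

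HOX transcripts lay mainly in the KDR-marked and mesenchymal groups. At E13 the 37 genes together reached 854 CPM in the KDR-marked group (interval 806 to 904, 149 nuclei), 884 in the POSTN-marked group (826 to 944, 258 nuclei), 744 in the FGF10-marked group (716 to 773, 1081 nuclei) and 523 in the TRPC6-marked group (490.1 to 558, 368 nuclei). The EPCAM-marked group had 15.3 CPM (13.99 to 16.6, 4584 nuclei) and the PTPRC-marked group 24.6 (18.6 to 31.8, 469 nuclei). At E20 the KDR-marked group stood highest, at 1729 CPM in the epithelial library (1687 to 1772, 815 cells) and 1577 in the CD45-negative library (1524 to 1630.3, 654 cells), and the pooled mesenchymal clusters had 473 and 525. The intervals of the KDR-marked and mesenchymal groups lay apart from those of the EPCAM-marked group in all 3 libraries.

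**Figure D1:**
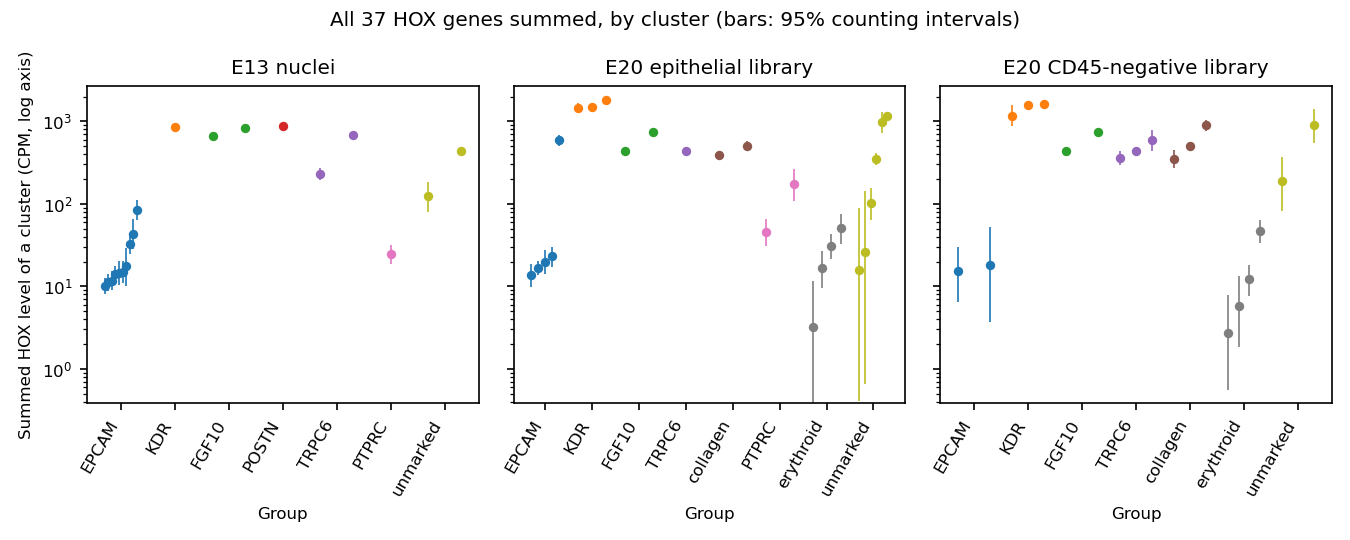
Summed level of all 37 HOX genes in each cluster (CPM, logarithmic axis) by group, 1 panel per library, with 95% counting intervals. KDR-marked and mesenchymal clusters lie between 232 and 1794 CPM, and the EPCAM-marked clusters at 85.3 CPM or lower except 1 at 589 CPM in the E20 epithelial library.

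The red blood cell clusters of E20 served as a measure of free RNA. They had 24.2 summed HOX CPM in the epithelial library and 14.97 in the CD45-negative library. Single red blood cell clusters of the epithelial library ran from 3.22 to 50.6 CPM. Of its 5 EPCAM-marked clusters 4 stood between 13.8 and 23.1 CPM, below the pooled red blood cell level and inside that range, so these values are not read as expression. After thinning every cell to 1000 UMIs, 50.3% of E13 KDR-marked nuclei had a HOX UMI (91.9% unthinned), 48.9% of mesenchymal nuclei (81.0%) and 2.23% of EPCAM-marked nuclei (8.99%). The thinned E20 shares were 79.7% and 75.2% of KDR-marked cells, 35.2% and 38.4% of mesenchymal cells, 2.52% and 3.33% of EPCAM-marked cells, and 3.67% and 1.23% of red blood cells, for the epithelial and CD45-negative libraries in that order. The median depths of EPCAM-marked and red blood cells in the epithelial library were 6457 and 1661 UMIs.

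The HOX genes that the lung transcribed lay in the low and middle part of the HOXA and HOXB clusters. A level of 10 CPM in a marked group was reached by 12 members at E13, and by 11 and 9 in the E20 epithelial and CD45-negative libraries. None was a HOXC gene, and HOXD8 was the only HOXD gene among them. Over the 3 libraries 14 members met this level with at least 10 UMIs: HOXA2 to HOXA7, HOXB2 to HOXB8, and HOXD8. The other 23 had at most 33 UMIs each over all kept cells, and HOXA11, HOXB13, HOXD11, HOXD12 and HOXD13 had 0, which allows up to 3 counts in each library. The 16 members of paralogue groups 9 to 13 together had 21, 25 and 5 UMIs in the 3 libraries.

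**Figure D2:**
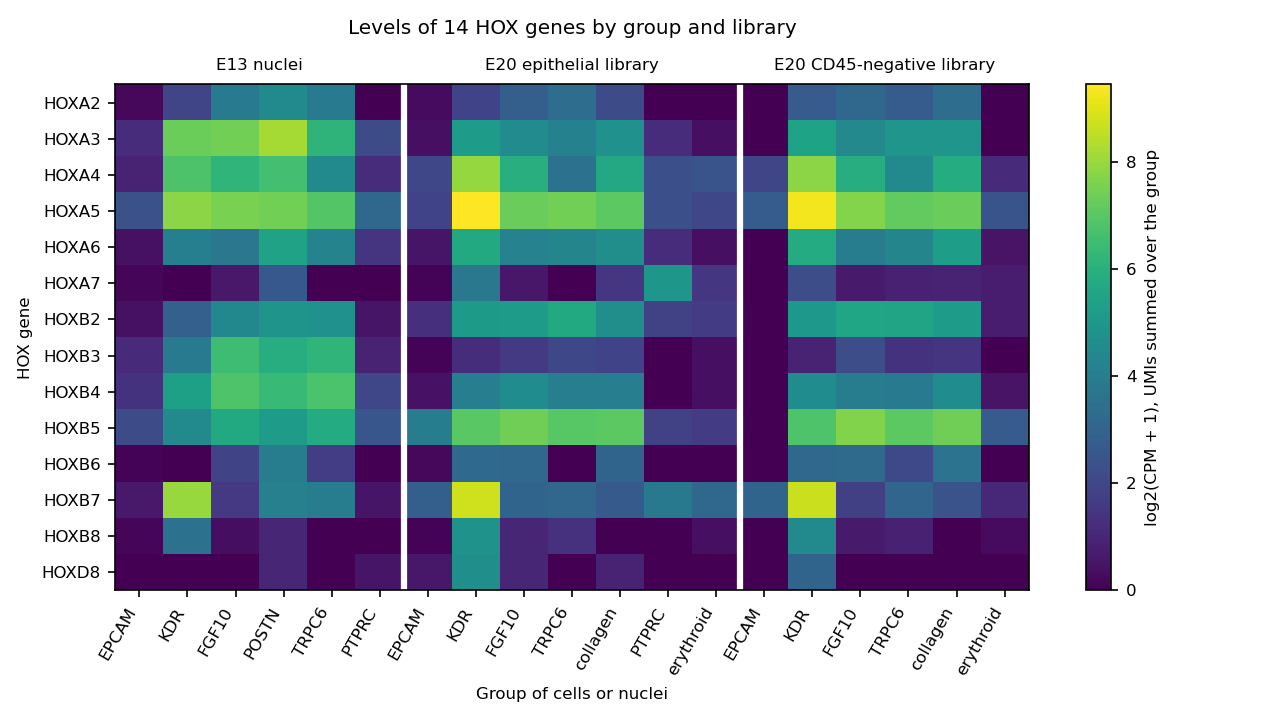
Levels of the 14 HOX genes, as log2(CPM + 1), in each group of the 3 libraries. HOXB7 and HOXB8 are brightest in the KDR-marked columns, HOXB3 is bright in the mesenchymal columns of E13 only, and the EPCAM, PTPRC and red blood cell (erythroid) columns are dark for most genes.

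Within the HOXA cluster, HOXA3, HOXA4 and HOXA5 carried most of the E13 signal. HOXA5, whose loss in the mouse disturbs lung and tracheal development, stood at 221 CPM in the KDR-marked group, 186 in the FGF10-marked, 172 in the POSTN-marked and 119 in the TRPC6-marked group, against 4.10 in the EPCAM-marked and 8.19 in the PTPRC-marked group. HOXA3, known in the mouse for the pharyngeal arches and thymus, had 285.5 CPM in the POSTN-marked, 173 in the FGF10-marked, 159 in the KDR-marked and 68.9 in the TRPC6-marked group, with 1.32 in the EPCAM-marked and 3.45 in the PTPRC-marked group. HOXA4 had 109.6 CPM in the KDR-marked, 98.2 in the POSTN-marked, 70.7 in the FGF10-marked and 22.0 in the TRPC6-marked group, with 0.936 and 1.29 in the EPCAM- and PTPRC-marked groups. The 3 genes were thus low in epithelium and blood-borne cells, and, among mesenchymal groups, all 3 were lowest in the TRPC6-marked nuclei. The annotated starts of HOXA3 span 26196 bases and enclose the starts of HOXA4 and HOXA5, so the split of reads among these overlapping genes is uncertain.

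HOXA2, known for the second pharyngeal arch, and HOXA6 were lower. HOXA2 had 21.3 CPM in the POSTN-marked, 13.9 in the FGF10-marked, 13.6 in the TRPC6-marked and 2.90 in the KDR-marked group at E13, and 0.146 in the EPCAM-marked group. HOXA6 had 42.5 CPM in the POSTN-marked group, above 17.5 in the TRPC6-marked, 16.0 in the KDR-marked and 12.5 in the FGF10-marked group. HOXA7 had 5.06 CPM in the POSTN-marked group and at most 0.568 in the other marked groups.

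In the HOXB cluster HOXB3, HOXB4 and HOXB5 were mesenchymal at E13. HOXB4, studied in blood stem cells of mouse and human, had 113 CPM in the FGF10-marked, 107 in the TRPC6-marked, 83.0 in the POSTN-marked and 39.9 in the KDR-marked group. HOXB3 had 90.1, 71.8, 57.7 and 13.8 CPM in the same order. HOXB5, which acts in airway branching in the mouse, had 52.0, 55.4, 36.4 and 21.8 CPM. The intervals of HOXB4 in the FGF10-marked (102 to 124) and TRPC6-marked (92.1 to 123) groups overlapped, as did those of HOXB5 (44.7 to 60.1 and 45.0 to 67.5). HOXB2 was lower, at 20.5, 26.6, 28.4 and 6.53 CPM. In the EPCAM-marked group HOXB3, HOXB4 and HOXB5 had 1.23, 1.64 and 3.63 CPM.

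HOXB7 had another pattern. It was the highest HOX gene of the KDR-marked group at E13, with 249.6 CPM (224 to 277), and had 16.2 in the POSTN-marked, 14.7 in the TRPC6-marked, 1.99 in the FGF10-marked, 0.556 in the EPCAM-marked and 0.431 in the PTPRC-marked group. Its neighbour HOXB8 had 10.9 CPM in the KDR-marked group and at most 1.01 in the other marked groups. HOXB6, the neighbour on the other side, had no UMI in the KDR-marked group, where 3 counts would be 2.18 CPM, and was highest in the POSTN-marked group at 15.2 CPM. HOXB7 and HOXB8 were thus highest in the KDR-marked group, and HOXB6 was not.

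Groups were compared by 2-fold calls at 10 CPM or more in the higher group. No member reached 10 CPM in the EPCAM-marked nuclei of E13, where HOXA5 was highest at 4.10 CPM. The 9 members that reached it in the pooled mesenchymal clusters, and the 9 in the KDR-marked group, were therefore bound to be called higher than in the EPCAM-marked group, and nothing is read from these counts (15.8% of 8320 genes were higher and 10.3% lower in mesenchymal, and 13.4% and 21.0% in KDR-marked nuclei). For HOXB5 and HOXA3 the log2 ratio of the pooled clusters over EPCAM-marked nuclei was 3.799 (interval 3.49 to 4.11) and 6.94 (6.51 to 7.40). Between the KDR-marked and mesenchymal nuclei the members divided: HOXB7 (log2 ratio 4.999, interval 4.56 to 5.46) and HOXB8 (5.09, 2.99 to 8.27) were at least 2-fold higher in KDR-marked nuclei, where 8.55% of genes were, and HOXA2, HOXB2, HOXB3, HOXB4 and HOXB5 were lower, where 21.1% of genes were. HOXA3, HOXA4, HOXA5 and HOXA6 lay within 2-fold. HOXB7 and HOXB8 lay below 10 CPM in mesenchymal nuclei, and HOXA2 and HOXB2 in KDR-marked nuclei. Each of these was tested only through the group where it was higher. On 2 other scalings (without mitochondrial, ribosomal and haemoglobin genes, and by median-of-ratios size factors) HOXA4 also passed 2-fold towards the KDR-marked nuclei, HOXB5 no longer passed it, and HOXA3 and HOXA6 changed sign within 2-fold.

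In the POSTN-marked nuclei of E13, 3 middle paralogues were higher than in the FGF10-marked. HOXA6 (log2 ratio 1.77, interval 1.12 to 2.41), HOXB6 (2.42, 1.17 to 3.73) and HOXB7 (3.03, 1.66 to 4.55) were past 2-fold, 3 of 11 members where 6.82% of genes were, and none was lower, where 8.4% of genes were. HOXB6 and HOXB7 lay below 10 CPM in the FGF10-marked nuclei and were tested only through the POSTN-marked group. The count is therefore not read against the share of all genes. Few nuclei carried these 3 genes: of the 258 POSTN-marked nuclei 29 had HOXA6 (42 UMIs), 13 HOXB6 (15 UMIs) and 9 HOXB7 (16 UMIs). In TRPC6-marked against FGF10-marked nuclei HOXB7 was higher (1 of 10 members, where 5.63% of genes were), but its 26 UMIs lay in 4 of 368 nuclei and none of these had one after thinning, and HOXA3 and HOXA4 were lower (2 of 10, where 7.88% were). POSTN-marked over TRPC6-marked nuclei had HOXA3, HOXA4, HOXA6 and HOXB6 higher, 4 of 11 (11.4% of genes), and none lower (9.91%). In these 2 comparisons HOXB7 and HOXB6, in that order, were again tested only through the higher group. At E20 HOXA4 was again lower in TRPC6-marked than FGF10-marked cells, at 10.8 against 59.8 CPM in the epithelial library and 22.1 against 58.0 in the CD45-negative library. It was the 1 member of 7 lower in each (15.9% and 15.8% of genes), and none was higher (13.1% and 12.3%). The 2 TRPC6-marked clusters were unlike each other: the cluster led by TRPC6, HES5 and EBF1 had 691 summed HOX CPM (644 to 742), and the cluster led by the smooth muscle genes ACTG2, MYH11 and MYOCD had 232 (196 to 272).

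The mean paralogue number, weighted by UMIs, summarises where in the clusters the transcripts came from. At E13 it was 5.03 in the KDR-marked group (4.94 to 5.12), and 3.93 (3.89 to 3.97), 3.99 (3.91 to 4.08) and 4.10 (4.02 to 4.17) in the FGF10-, POSTN- and TRPC6-marked groups. At E20 it was 5.39 and 5.34 in the KDR-marked groups of the epithelial and CD45-negative libraries, 4.59 and 4.56 in the FGF10-marked and 4.51 and 4.50 in the TRPC6-marked groups. The intervals of the FGF10- and POSTN-marked groups overlapped. The KDR-, FGF10- and TRPC6-marked groups each stood at a higher mean at E20, and the KDR-marked group above the mesenchymal groups at each stage. HOXA genes gave 59.5% of the HOX UMIs of the KDR-marked group at E13 and 60.5% and 60.4% at E20.

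Between E13 and E20, stage, assay (multiome nuclei against a single-cell library) and software version cannot be told apart. Both E20 libraries are set against the same E13 nuclei and so share that comparator. The median gene shifted upward: by 0.97 and 1.04 on the log2 scale in the KDR-marked group, and by 0.41 and 0.54 in the mesenchymal clusters. Without mitochondrial, ribosomal and haemoglobin genes these shifts were 0.14, 0.16, -0.17 and -0.01. HOX genes lie closely spaced, with a median spacing of 18697 bases against 51941 for all genes, and the fifth of genes with the closest spacing, which holds 19 of the 37, had larger median shifts of 1.78 and 1.90 (KDR-marked) and 1.32 and 1.49 (mesenchymal). The part of gene spacing and of the assay in the ratios below was not tested.

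HOXA3, HOXB3 and HOXB4 were lower at E20 in mesenchyme. HOXB3 stood at 79.8 CPM in the E13 mesenchymal nuclei and 2.43 and 2.49 in the E20 epithelial and CD45-negative libraries (log2 -5.04, interval -6.17 to -4.10, and -5.00, -6.07 to -4.11). HOXB4 stood at 106 and then 19.5 and 16.9 CPM (log2 -2.45 and -2.65). HOXA3 stood at 162 and then 22.7 and 25.9 CPM, with log2 ratios of -2.83 and -2.64. HOXA2 was 14.97 and then 5.95 and 7.73 CPM, past 2-fold in the epithelial library, and in the CD45-negative library on the other 2 scalings only. In all, 4 of 9 members were at least 2-fold lower in the epithelial library, where 27.0% of genes were, and 3 of 9 in the CD45-negative library, where 24.6% were. HOXA2 and HOXB3 lay below 10 CPM in both E20 libraries and were tested only through E13. The counts are therefore not read against these shares.

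HOXB5 went the other way, from 50.5 CPM in E13 mesenchyme (45.1 to 56.4) to 150.02 (138 to 163) and 172 (159 to 185), a log2 ratio of 1.57 (1.37 to 1.77) and 1.77 (1.57 to 1.96), and it was the 1 member of 9 past 2-fold upward, where 36.4% and 39.4% of genes were. HOXA5 stayed close to its E13 level of 165 CPM, at 151 and 171, HOXA4, within 2-fold, was at 61.3 and then 48.4 and 46.6, and HOXB2 at 23.4 and then 35.4 and 42.9. At E20 HOXA5 and HOXB5 were therefore the highest HOX genes of mesenchyme, where HOXA5, HOXA3 and HOXB4 had been at E13. On the other 2 scalings the calls for HOXA3, HOXB3, HOXB4 and HOXB5 held in both libraries.

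Taken singly, the FGF10- and TRPC6-marked groups gave these values. In the FGF10-marked group HOXA3 went from 173 CPM to 22.7 and 21.0, HOXB3 from 90.1 to 2.06 and 3.70, HOXB4 from 113 to 23.2 and 14.8, and HOXB5 from 52.0 to 169 and 203. A total of 4 and 3 of 9 members were lower (28.6% and 26.0% of genes) and 1 and 2 were higher (35.4% and 37.6%), HOXB2 being the second in the CD45-negative library. In the TRPC6-marked group HOXA3 went from 68.9 CPM to 16.95 and 29.5, HOXB3 went from 71.8 CPM to 3.08 and 1.64, HOXB4 from 107 to 15.4 and 13.9, and HOXB5 from 55.4 to 125 and 134. There 3 and 4 of 10 members (HOXA2 besides in the CD45-negative library) were lower (27.4% and 25.5%) and 1 in each library was higher (38.4% and 39.5%). In both the FGF10- and TRPC6-marked groups HOXA2 and HOXB3 lay below 10 CPM at E20 and were tested only through E13. The counts lower are therefore not read against the shares of all genes. The TRPC6-marked group pooled 2 clusters at E13, 1 in the epithelial and 3 in the CD45-negative library. The part of its make-up in these values was not tested.

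**Figure D3:**
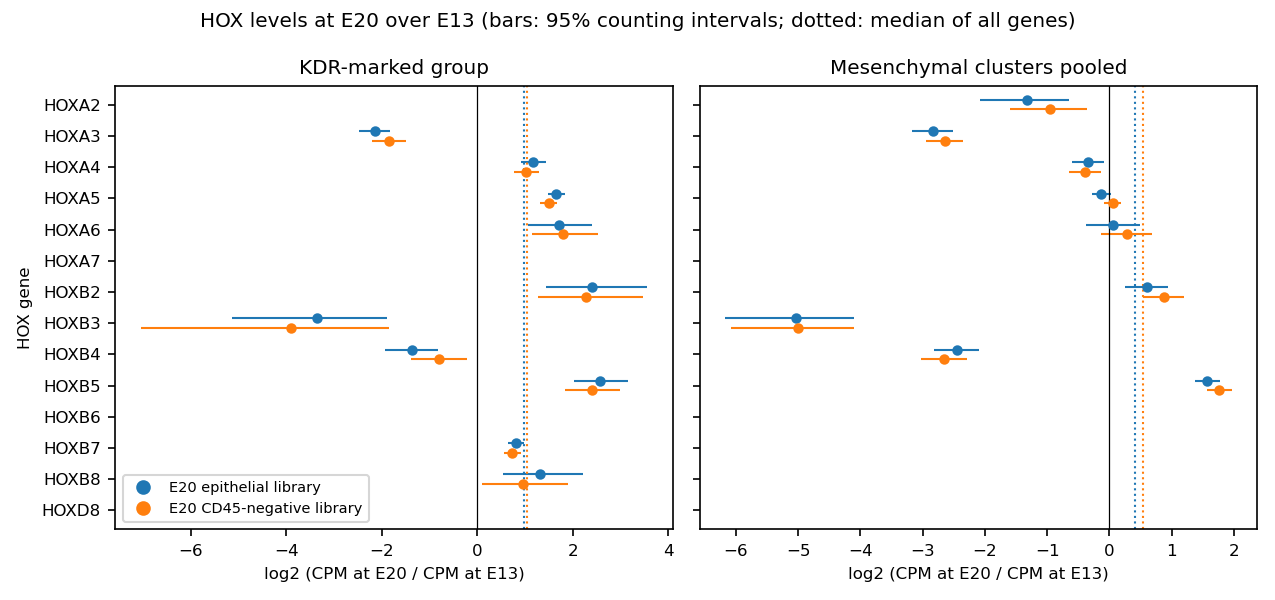
Ratio of CPM at E20 to CPM at E13 (log2, without pseudocount) for the HOX genes tested, in the KDR-marked group (left) and the pooled mesenchymal clusters (right), with 95% counting intervals; dotted lines are the medians over all genes, and genes at 0 UMIs at E13 have no point. HOXA3, HOXB3 and HOXB4 lie left of 0 and HOXB5 right of the dotted lines in both panels.

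In the KDR-marked group HOXA3, HOXB3 and HOXB4 were lower at E20 as well. HOXA3 had 159 CPM at E13 and 35.8 and 44.1 at E20, HOXB3 13.8 and then 1.35 and 0.918, and HOXB4 39.9 and then 15.3 and 22.9. Lower by at least 2-fold were 3 of 12 members in the epithelial library, where 19.5% of genes were, and 2 of 10 in the CD45-negative library, where 18.8% were. HOXB3 lay below 10 CPM at E20 and was tested only through E13, so these counts are not read against the shares of all genes. HOXB4 passed in the CD45-negative library on the other 2 scalings. HOXB5 went from 21.8 CPM to 129 and 114 (log2 2.56, interval 2.03 to 3.15, and 2.39, 1.84 to 2.99), and HOXB2 from 6.53 to 34.4 and 31.7.

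The members called higher were 8 of 12 and 5 of 10, where 49.3% and 51.1% of all genes and 75.5% and 78.1% of the closely spaced genes were. HOXB2 in both libraries, and HOXA7 and HOXD8 in the epithelial library, lay below 10 CPM at E13 and were tested only through E20. The counts higher are therefore not read against these shares. HOXA5 was at 221 CPM at E13 and 695 and 621 at E20, HOXA4 at 109.6 and then 247 and 223, HOXA6 at 16.0 and then 51.9 and 55.5, and HOXB8 at 10.9 and then 27.2 and 21.1, within 2-fold in the CD45-negative library. By size factors none of these 4 passed 2-fold in either library, while HOXB2 and HOXB5 did in both. HOXB7 had 249.6 CPM at E13 and 436 and 414 at E20, within 2-fold, and its sign turned negative by size factors. HOXA7 and HOXD8 had 0 UMIs in the 149 KDR-marked nuclei of E13, and 12.9 and 24.8 CPM in the epithelial library. Against 3 counts at E13 these levels were at least 5.93-fold and 11.4-fold higher. By size factors HOXA7 was not called because its rescaled level lay below 10 CPM. Its log2 ratio with pseudocount was then 3.01, past 2-fold.

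Within E20, the KDR-marked cells of the epithelial library had at least 2-fold higher levels than its mesenchymal cells for 7 of 11 members, where 16.5% of genes were, and those of the CD45-negative library for 5 of 9, where 15.3% were. None was lower, where 15.7% and 16.6% of genes were. The 5 found in both were HOXA4, HOXA5, HOXA6, HOXB7 and HOXB8. HOXA4, HOXA5 and HOXA6 reached 10 CPM in the mesenchymal cells too. HOXB7 and HOXB8 in both libraries, and HOXA7 and HOXD8 in the epithelial library, did not. These were tested only through the group where they were higher, so the counts are not read against the shares of all genes. HOXB7 stood furthest apart, with 436 against 6.76 CPM (log2 6.01, interval 5.45 to 6.65) and 414 against 4.49 CPM (6.53, 5.86 to 7.29). After thinning, 34.6% of KDR-marked cells in each library had a HOXB7 UMI, against 1.00% and 0.431% of mesenchymal and 1.19% and 0.514% of red blood cells. The E20 libraries gave like values: of 11 members tested between their KDR-marked groups, HOXA7 and HOXD8 were higher in the epithelial library (1.1% of genes) and none was lower (0.644%), and none of 7 differed by 2-fold between their mesenchymal clusters (1.78% of genes higher, 1.69% lower).

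HOXA7 and HOXD8 came from a small set of KDR-marked cells. In each E20 library 1 KDR-marked cluster had LYVE1 among its 10 leading genes, with MMRN1 and PROX1, which are known for lymphatic endothelium in mammals. It held 32 cells in the epithelial and 11 in the CD45-negative library, and was singled out after its values were seen. HOXD8, described downstream of Prox1 in mammalian lymphatic endothelial cells, stood at 569 CPM (457 to 701, 24 of 32 cells with a UMI) and 393 CPM (224 to 637, 7 of 11 cells) in these cells. In the other KDR-marked cells it had 3 UMIs in 783 cells (0.843 CPM) and 0 UMIs in 643 cells, where 3 counts would be 1.40 CPM.

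HOXA7 had 294 CPM in the LYVE1-led cells of the epithelial library (26 of 32 cells) and 123 in those of the CD45-negative library (4 of 11 cells), with log2 ratios of 9.03 (7.10 to 12.1) and 6.45 (4.09 to 9.14) over the other KDR-marked cells. HOXD4, HOXD10 and HOXA9 had 9, 4 and 5 UMIs in the 32 cells of the epithelial library, 1, 2 and 0 in the 11 cells of the CD45-negative library, and 0 in the other KDR-marked cells of either. HOXD genes gave 45.9% and 41.7% of HOX UMIs in the LYVE1-led cells and 0.0484% and 0% in the others. Their mean paralogue number was 6.94 and 6.77, against 5.33 and 5.32 in the other KDR-marked cells. In turn HOXA5 was lower in the LYVE1-led cells, with 109 against 721 CPM (log2 -2.73, interval -3.51 to -2.05) and 196 against 629 CPM (-1.68, -2.89 to -0.70), and HOXB7 had 154 against 449 and 172 against 419 CPM. Without these clusters the epithelial library had 10 members at 10 CPM in a marked group in place of 11, and the count lower at E20 in the KDR-marked group was 3 and 2 as before.

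**Figure D4:**
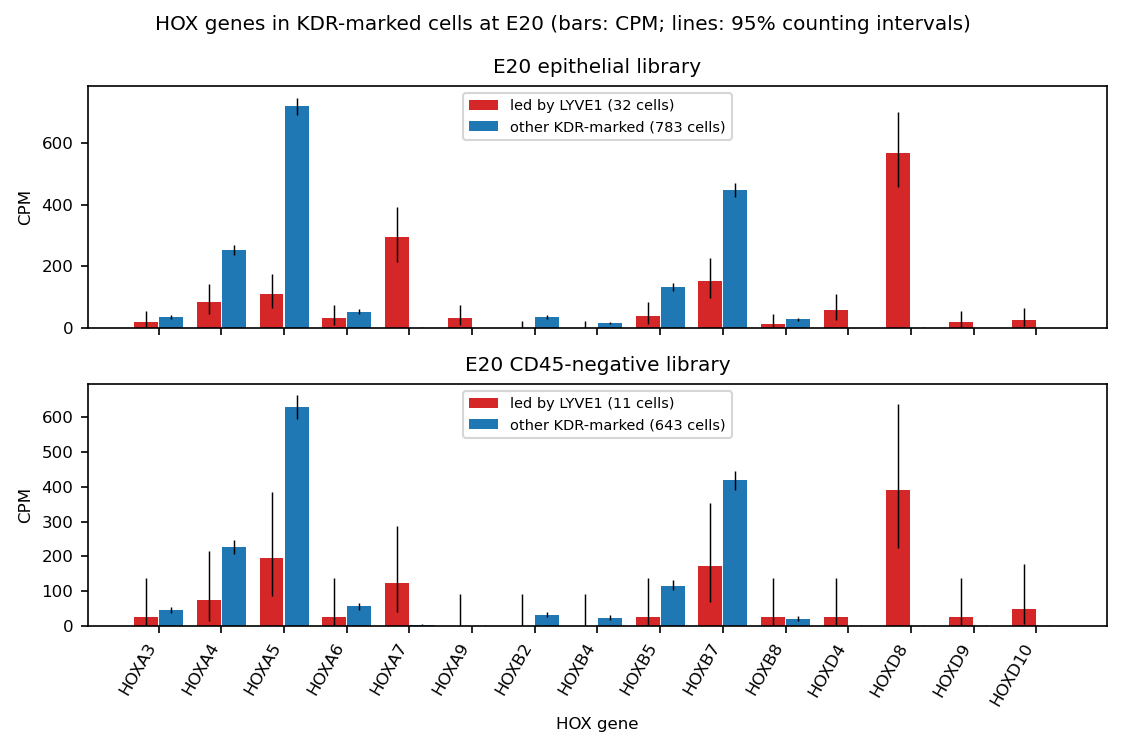
CPM of 15 HOX genes in the KDR-marked cells of the 2 E20 libraries, split into the cluster led by LYVE1 (32 and 11 cells) and the other KDR-marked cells (783 and 643 cells), with 95% counting intervals. HOXD8 and HOXA7 stand high in the LYVE1-led cells and near 0 in the others, and HOXA5 and HOXB7 are higher in the others.

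The EPCAM-marked epithelium had little HOX RNA, with 1 exception. At E20 in the epithelial library HOXB5 had 14.8 CPM over the EPCAM-marked group against 3.63 at E13, and 170 of its 197 UMIs fell in 1 cluster of 55 cells that had CHGA and KRT40 among its leading genes and was picked out after its values were seen. CHGA encodes chromogranin A, a secretory granule protein of neuroendocrine cells. HOXB5 stood at 556 CPM in this cluster (475 to 646) and at 2.07 CPM (1.37 to 3.01) in the other 1853 EPCAM-marked cells. The UMIs came from 9 of the 55 cells, with a median of 21 and up to 34 UMIs per cell, whereas 27 of the other 1853 cells had exactly 1 UMI each.

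Taken by CHGA instead, 9 EPCAM-marked cells of this library had at least 2 CHGA UMIs, and 8 of them had between 5 and 34 HOXB5 UMIs, 169 in all (2805 CPM, 2398 to 3261). They held 2 UMIs of all other HOX genes together. Of 1897 EPCAM-marked cells without a CHGA UMI, 28 had HOXB5, 1 UMI each. Median depth was 7149 UMIs in the CHGA cells and 6445 in the others. Of the 9 HOXB5 cells of the cluster 7 had EPCAM, 7 had the neuronal gene ELAVL4 and 0 had KDR. The SNTN and COL17A1 cells of the same cluster, marked by genes of cilia and of basal cells, held no HOXB5. No EPCAM-marked nucleus of E13 and no EPCAM-marked cell of the CD45-negative library (90 cells) had 2 CHGA UMIs.

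The E13 EPCAM-marked nuclei held more HOXB5 per HOXA3 UMI than the KDR-marked and mesenchymal nuclei. HOXB5 had 124 UMIs and HOXA3 45, a ratio of 2.76 (1.94 to 3.97), against 0.313 (0.275 to 0.355) in mesenchymal and 0.137 (0.0903 to 0.201) in KDR-marked nuclei. The TRPC6-marked nuclei, part of the mesenchymal pool, had 0.803 (0.609 to 1.06). The ratio in PTPRC-marked nuclei, 1.38 on 11 and 8 UMIs (0.504 to 3.94), overlapped that of the EPCAM-marked. HOXB5 per HOXA5 was 0.886 (0.690 to 1.14), against 0.306 (0.269 to 0.347) in mesenchyme and 0.579 (0.249 to 1.28) in PTPRC-marked nuclei. No red blood cell group was found at E13, so free RNA was not measured there. The level itself was low, with HOXB5 in 121 of 4570 nuclei without CHGA and never above 2 UMIs. Among the 10 EPCAM-marked clusters the summed level ran from 10.2 to 85.3 CPM, and was highest in a cluster of 55 nuclei led by COL9A1, where HOXA3 had 11 UMIs.

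In the PTPRC-marked cells of E20 HOXA7 was the highest HOX gene, with 24 of 51 HOX UMIs. The PTPRC-marked group of the epithelial library had 51 HOX UMIs, or 66.1 CPM (49.2 to 86.9), of which 68.6% came from paralogue groups 6 to 8 and 9.80% from groups 9 to 13. Its mean paralogue number was 6.53 (6.10 to 6.96), against 4.58 (4.30 to 4.86) at E13. The share of groups 6 to 8 and the mean include the HOXB7 UMIs. The E13 mean rests on 57 HOX UMIs, and free RNA was not measured at E13. HOXA7 had 31.1 CPM (19.9 to 46.3) and HOXB7 12.96, against 0 and 0.431 CPM at E13, and HOXA5 had 3.89. Of the 24 HOXA7 UMIs 12 lay in 31 cells led by the T cell genes CD3D and CD3E (99.3 CPM, 51.3 to 174), which also had 5 HOXA9 UMIs. The other 12 lay in 151 cells led by S100A12 and IL1B (18.4 CPM, 9.53 to 32.2). The red blood cells of this library had 1.82 CPM of HOXA7 and 7.88 of HOXB7. After thinning, 4.97% of PTPRC-marked cells (7.69% unthinned, median 3948 UMIs) and 0.256% of red blood cells (0.507% unthinned) had HOXA7. For HOXB7 these shares were 1.10% and 1.19% (5.49% and 2.11% unthinned), so its level in PTPRC-marked cells is not read as expression.

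HOX chromatin at E13 was read in the same nuclei. Of the 51 peaks, 17 were assigned as promoter and 34 as distal, 17 lay in HOXA, 20 in HOXB, 6 in HOXC and 8 in HOXD, and 8 members had none, among them HOXB7 and HOXA2. Counts in the 51 peaks came to 939 per 1000000 ATAC counts (CPM of peaks) in the KDR-marked group, 806 in the POSTN-marked, 786 in the TRPC6-marked, 777 in the FGF10-marked, 388 in the PTPRC-marked and 246 in the EPCAM-marked group. The order of mesenchymal and KDR-marked above EPCAM-marked groups was that of the RNA, with a smaller range.

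In the pooled mesenchymal nuclei 23 of 32 HOX peaks tested (at 10 peak CPM or more in the higher group) were at least 2-fold more accessible than in EPCAM-marked nuclei, where 25.9% of 42041 peaks were, and 1 was less accessible, where 28.3% were. The KDR-marked nuclei were higher for 22 of 30 peaks, where 20.3% of peaks were and 34.5% were lower, and 1 was lower. PTPRC-marked nuclei were higher for 6 of 13 and lower for 2 (20.4% and 35.8% of peaks). Each HOX peak called higher lay below 10 peak CPM in EPCAM-marked nuclei, so it was tested only through the group where it was higher. Each called lower lay below 10 peak CPM in the group compared and was tested only through the EPCAM-marked nuclei. The counts higher and lower, here and by paralogue group below, are therefore not read against the shares of all peaks. The sums over all peaks of a paralogue class, given last, have no such filter. All 23 peaks belonged to paralogue groups 1 to 8, where 23 of 27 tested peaks were higher with a median log2 ratio of 2.70. In paralogue groups 9 to 13 none of 5 tested peaks passed, and their ratios lay between 0.43 and 0.66. These groups held 18 peaks, and the rest were below 10 peak CPM in both EPCAM-marked and mesenchymal nuclei and were not tested. Without the filter and pseudocount, the log2 ratios of the 18 ran from -0.35 (interval -1.02 to 0.26) to 1.18 (0.72 to 1.64). In the KDR-marked nuclei 17 of 21 peaks of groups 1 to 8 and 5 of 9 peaks of groups 9 to 13 were higher than in EPCAM-marked nuclei. Summed over all peaks of groups 9 to 13, accessibility was 116 peak CPM in EPCAM-marked, 153 in mesenchymal, 165 in PTPRC-marked and 203 in KDR-marked nuclei, and over groups 1 to 8 it was 130.1, 631, 224 and 736.

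**Figure D5:**
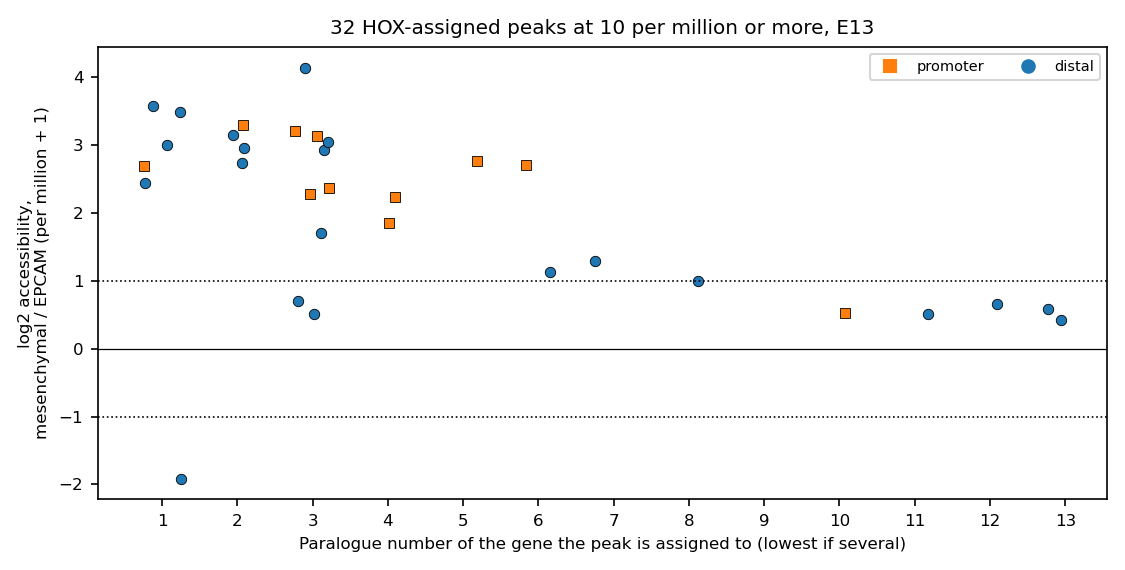
Accessibility of 32 HOX-assigned peaks in pooled mesenchymal over EPCAM-marked nuclei at E13, as log2(peak CPM + 1), by the paralogue number of the assigned gene; squares are promoter and circles distal peaks, and dotted lines mark 2-fold. Peaks of low paralogue numbers reach 4.14, and 1 peak assigned to HOXB1 lies at -1.91. Of the 18 peaks of numbers 9 to 13 only the 5 tested are drawn, and these lie between 0.43 and 0.66.

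Promoter peaks of the named members were open mainly outside the epithelium. The peak at the starts of HOXA3 and HOXA4 (chr2:32610969-32611883) had 6.01 peak CPM in EPCAM-marked, 60.2 in mesenchymal, 66.1 in KDR-marked and 17.7 in PTPRC-marked nuclei, a log2 ratio of 3.33 (3.08 to 3.57) for mesenchymal over EPCAM-marked. At HOXA5 (chr2:32624466-32625376, also assigned to HOXA3) the values were 9.06, 51.0, 82.4 and 24.9 peak CPM. HOXB5 (chr27:6225940-6226787) had 4.86, 39.0, 43.4 and 2.08, and HOXB4 (chr27:6243167-6244051) had 3.77, 16.2, 16.4 and 1.04. HOXB6 (chr27:6221127-6221869) had 1.72, 16.7, 15.6 and 2.08, although the KDR-marked nuclei had no HOXB6 UMI.

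HOXB3 and HOXB2 each had a pair of promoter peaks. The HOXB3 peak at its start (chr27:6265878-6266684) had 1.24, 19.7 and 20.6 peak CPM in EPCAM-marked, mesenchymal and KDR-marked nuclei. Its second, listed at -476 bases (chr27:6264792-6265616), had 1.54, 11.4 and 2.84, with 4 counts in the KDR-marked nuclei. For KDR-marked over mesenchymal nuclei its log2 ratio was -2.002 (-3.91 to -0.60), tested only through mesenchyme. That of the start peak was 0.06 (-0.56 to 0.64). HOXB3 RNA was lower in KDR-marked than mesenchymal nuclei. The HOXB2 peak at its start (chr27:6277005-6277896) had 2.11, 29.6 and 17.8 peak CPM, and the one listed at -572 bases (chr27:6275888-6276707) had 6.46, 5.06 and 7.82, below 10 in each group.

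The 5 peaks with the highest mesenchymal over EPCAM ratio were 3 distal peaks and the start peaks of HOXB2 and HOXB3. Furthest apart was a distal peak listed at -7454 bases from HOXB3 (chr27:6252384-6253279), with 34.8 peak CPM in mesenchymal, 27.01 in KDR-marked and 1.03 in EPCAM-marked nuclei (log2 5.08, interval 4.57 to 5.64). A distal peak at 13617 bases from HOXB1 (chr27:6301454-6302173) had 14.7 peak CPM in mesenchymal nuclei, 0.393 in EPCAM-marked and 1.42 in KDR-marked nuclei. It was thus open in mesenchyme and near the EPCAM level in the KDR-marked nuclei. HOXB1 itself had 4 UMIs at E13.

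Of the peaks tested, 1 was at least 2-fold less accessible in mesenchymal than EPCAM-marked nuclei, and it was tested only through the EPCAM-marked nuclei. This distal peak, 11064 bases from HOXB1 (chr27:6298901-6299819), had 10.4 peak CPM in EPCAM-marked, 2.02 in mesenchymal and 1.42 in KDR-marked nuclei, a raw log2 ratio of -2.36 (-3.18 to -1.64) for mesenchymal over EPCAM-marked. Peaks at HOXD12 (14.9 peak CPM) and at HOXA3 and HOXA5 (13.6) were more accessible than this one in EPCAM-marked nuclei, with ratios within 2-fold. The other 4 of the lowest ratios, at HOXD13, HOXA5, HOXA11 and HOXD10, lay between 0.43 and 0.53 and so within 2-fold.

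Between KDR-marked and mesenchymal nuclei 30 of 39 HOX peaks lay within 2-fold, 2 were more (13.7% of peaks) and 7 less (28.1%) accessible in the KDR-marked nuclei. The 7 lay below 10 peak CPM in KDR-marked nuclei, and a peak assigned to HOXC10 did so in mesenchymal nuclei. Each of these was tested only through the group where it was higher. The counts are therefore not read against the shares of all peaks. A distal peak 2103 bases from HOXA3 (chr2:32599317-32600207) had 104 peak CPM in KDR-marked nuclei, 25.3 in mesenchymal and 2.17 in EPCAM-marked nuclei, with a log2 ratio of 2.05 (1.73 to 2.36) for KDR-marked over mesenchymal. HOXA3 RNA was 159 CPM and 162 CPM in these groups. The other peak past 2-fold, a distal peak assigned to HOXC10 (chr33:7589377-7590263), had 13.5, 4.94 and 4.32 peak CPM in KDR-marked, mesenchymal and EPCAM-marked nuclei. The peak 6504 bases from HOXA3 (chr2:32594905-32595806) had 63.3, 33.7 and 3.56 peak CPM in the same order, within 2-fold between KDR-marked and mesenchymal nuclei.

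The cofactors and regulators of HOX genes were taken from lists of 9 cofactors, 15 polycomb, 8 trithorax and 15 retinoic acid and CDX genes, of which 7, 13, 2 and 14 were found by symbol. At E13, 4 of 6 cofactors tested were at least 2-fold higher in mesenchymal than EPCAM-marked nuclei and none was lower, where 15.8% of genes were higher and 10.3% lower, with a list median of 1.16 against 0.09 over all genes. MEIS1 had 550 against 19.7 CPM, MEIS2 594 against 22.7, PBX3 139 against 64.0 and PKNOX1 44.1 against 18.5. PBX3 and PKNOX1 no longer passed when mitochondrial, ribosomal and haemoglobin genes were left out of the total, which gave a count of 2. In the KDR-marked nuclei 1 of 6 cofactors, MEIS2, was higher than in EPCAM-marked nuclei (1030.4 CPM), and 2 were lower, among them PBX4 (5.08 against 11.7 CPM), where 13.4% of genes were higher and 21.0% lower. PBX4 was tested only through the EPCAM-marked nuclei, so the count lower is not read against that share.

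Of 7 genes tested from the retinoic acid and CDX list, RARB (672 against 150.2 CPM), ALDH1A2 (111 against 8.75), ALDH1A3 (137 against 5.79) and CYP26B1 (15.5 against 1.02) were higher in mesenchymal nuclei and none was lower. Over all genes 15.8% were higher and 10.3% lower. ALDH1A2, ALDH1A3 and CYP26B1 lay below 10 CPM in EPCAM-marked nuclei and were tested only through the mesenchymal nuclei. The count is therefore not read against those shares. RARB is a retinoic acid receptor, the ALDH1A enzymes make retinoic acid and CYP26B1 degrades it. In KDR-marked nuclei, of 6 tested, ALDH1A2 (20.3 CPM) and CYP26B1 (16.0) were higher and RARB was lower, at 31.9 CPM. ALDH1A2 and CYP26B1 were again tested only through the group where they were higher. Of 9 polycomb genes 1 was lower in mesenchymal nuclei and none was higher; in KDR-marked nuclei 4 of 8 were lower, among them CBX8, EED and PHC1, where 21.0% of genes were, and the median over all genes was -0.25. Of the trithorax list 1 gene was tested in mesenchyme and 2 in KDR-marked nuclei, and none passed.

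At E20, 5 of 6 cofactors were at least 2-fold lower in the mesenchymal cells of the epithelial library than in E13 nuclei and 3 of 6 in those of the CD45-negative library, where 27.0% and 24.6% of genes were, and none was higher, where 36.4% and 39.4% were. MEIS1 went from 550 CPM to 36.5 and 33.4, and MEIS2 from 594 to 132 and 94.5. In the same cells the polycomb genes EZH2 (164 CPM to 18.9 and 25.7) and JARID2 (808 to 118 and 123) were lower and BMI1 (26.0 to 96.5 and 85.7) was higher, so that 2 of 7 tested were lower, near those shares of all genes. Among the retinoic acid genes of 7 tested RARB (672 CPM to 221 and 258) and CYP26B1 (15.5 to 1.35 and 0) were lower, and RARA (16.9 to 98.9 and 99.2) and RARG (10.8 to 107 and 92.0) were higher. CYP26B1 was tested only through E13. In the KDR-marked group 2 of 6 cofactors, among them MEIS1 (33.4 CPM to 2.69 and 2.29), were lower in each library, where 19.5% and 18.8% of genes were. Only 1, PBX4 (5.08 to 14.3 and 27.1), was higher, where 49.3% and 51.1% were. MEIS1 was tested only through E13 and PBX4 only through E20, so these counts are not read against the shares of all genes.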

How the data were processed

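RNA libraries were deposited as counts of UMIs per gene and barcode, made per the file headers with cellranger-arc 2.0.0 (E13) and cellranger 4.0.0 (E20); the build is galGal6 per the submitters' processing notes. The ATAC values are deposited counts per peak and nucleus, and peaks carry the authors' assignment to genes, with a signed distance in bases as a score from the authors' annotation. Barcodes with at least 500 genes and, at E20, at most 20% mitochondrial UMIs were kept, and doublets were removed by a simulated-neighbour score at 0.8% per 1000 cells. E13 had no mitochondrial limit. Each library was clustered alone (2000 variable genes without HOX, list, mitochondrial, ribosomal and haemoglobin genes, 30 components, 15 neighbours, Leiden resolution 1, leidenalg 0.10.2, scikit-learn 1.9.0).

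A cluster took the mark at the largest share of that mark's highest cluster level, among marks with at least 10 UMIs, 25% of that level, and at least 3 genes, and no less than 1 in 3, of that mark's list at 25% of their highest levels. Clusters with at least 3 granule peptide genes among the 10 leading genes could only be PTPRC-marked. Unmarked clusters became red blood cells with at least 5% haemoglobin UMIs, or collagen-rich. The marking thresholds were chosen once the data had been seen, and the members and lists were chosen with earlier results of these data known.

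UMIs were summed per group, with ratios as log2(CPM + 1) for the 2-fold calls at 10 CPM or more in the higher group and 1 CPM as pseudocount; ratios with intervals are without pseudocount. Members named had at least 10 UMIs and 10 CPM in a marked group; peaks named are promoter peaks of these members and the 5 highest and 5 lowest ratios. The HOXA3 and HOXC10 distal peaks, the LYVE1-led, CHGA, T cell, smooth muscle and COL9A1 clusters were chosen after their values were seen. Poisson and Clopper-Pearson 95% intervals were used (normal ones for mean paralogue numbers), the floor of a count of 0 is 3 counts, and PCR and cell sampling are not covered. The calls were tested on simulated data. Values of some genes are not reported here.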

Additional observations from a re-analysis of the deposited data

Results flagged for a closer look

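HOXA4 moved in opposite directions between E13 and E20 in the KDR-marked group and the pooled mesenchymal clusters, in both E20 libraries, with counting intervals clear of 0. In KDR-marked cells its log2 change was 1.16 in the epithelial library and 1.02 in the CD45-negative library. In mesenchymal cells the change was -0.34 and -0.39. With 1 library per stage the difference between the groups was not tested. The median of all genes differed between these groups as well, at 0.97 and 1.04 against 0.41 and 0.54, and by size factors the HOXA4 change in KDR-marked cells was 0.30 and 0.10, against -0.81 and -0.94 in mesenchymal cells.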

How the results depend on the processing

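The 28 results were recomputed under each alternative, giving 256 values, of which 226 stayed within 1.5 times the reported count or inside the reported interval and 30 did not; the cause was not tested. With 50 CPM asked of the higher group, 7, 6 and 5 members reached the level in the 3 libraries, 4 members were higher in KDR-marked than EPCAM-marked nuclei, 2 HOX peaks were higher in mesenchyme, and 1 member was lower at E20 in KDR-marked cells of each library. In TRPC6-marked cells of the E20 epithelial library 5 members were lower with 1000 genes per cell, with stricter mitochondrial limits and without mitochondrial, ribosomal and haemoglobin genes, and 6 by size factors. In those of the CD45-negative library 2 were lower with doublets kept, with cells marked by their own UMIs and at 4-fold. At 4-fold 1 member was lower in KDR-marked cells of the CD45-negative library, and 2 cofactors were higher in E13 mesenchyme and 3 lower at E20 in the epithelial library. Without mitochondrial, ribosomal and haemoglobin genes 5 members and 5 cofactors were lower in CD45-negative mesenchyme and 2 cofactors higher at E13, as were 2 with cells marked by their own UMIs. The mean paralogue number moved with stricter mitochondrial limits to 4.81 (E13 KDR-marked), 3.97 (E13 TRPC6-marked), 5.33 (KDR-marked) and 4.74 (TRPC6-marked, both E20 epithelial). It moved to 4.09 (E13 POSTN-marked) at Leiden resolution 2, to 3.93 (E13 TRPC6-marked), 5.28 and 4.65 (KDR- and TRPC6-marked, CD45-negative) with cells marked by their own UMIs, and to 5.33 (KDR-marked, E20 epithelial) without the LYVE1-led cluster. Among closely spaced genes, 5.10% and 5.57% were lower and 75.5% and 78.1% higher in the KDR-marked group at E20, and 8.38% and 7.10% lower and 62.2% and 66.5% higher in mesenchyme. This, the LYVE1 split and the pooled mesenchymal stage counts were chosen after seeing the data. No paired analysis was possible because each group is 1 library, and no replicate could be left out. Depth limits the 149 KDR-marked E13 nuclei, where a count of 0 allows 2.18 CPM, and the 11 and 32 LYVE1-led cells.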

Other observations

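Some clusters carried no mark and entered no 2-fold comparison. At E13 a cluster of 91 nuclei led by WT1 and PODXL had 431 summed HOX CPM (379 to 489), with HOXA3 and HOXB4 at 99.8 CPM each, HOXA4 at 85.5 and HOXB7 at 0 UMIs. A cluster of 38 nuclei led by ELAVL4, RET and CHRNA3, genes of neurons, had 124 (78.7 to 186), with 8 HOXA3 and 5 HOXB4 UMIs. In the E20 epithelial library a cluster of 57 cells that led with both APLNR and POSTN, genes of KDR-marked and TRPC6-marked clusters, had 1171 CPM, with HOXA5 at 431 and HOXB7 at 303. Another of 32 cells had 973 CPM (715 to 1294). It had KDR at 186 CPM, on fewer than the 10 UMIs asked of a mark, and 12 of 17 genes of the KDR list at 25% or more of their highest cluster level, as many as the largest KDR-marked cluster. Clusters led by the thrombocyte genes GP9 and ITGA2B had 103 CPM (64.5 to 156, 102 cells) in the epithelial library, where HOXB7 had 9 of 22 HOX UMIs. In the CD45-negative library such a cluster of 7 cells had 914 CPM (550 to 1427), with 8 HOXA4 and 7 HOXB7 UMIs. In these 7 cells KDR was at 48.1 CPM and 8 of 17 genes of the KDR list were at that share of their highest level, against 1 of 17 in the 102 cells, and the part of KDR-marked cells in the value was not tested.

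Within the KDR-marked cells of E20, clusters led by SOX17, SEMA3G and JAG2 had HOXA5 at 531 CPM in the epithelial and 442 in the CD45-negative library, and the larger clusters led by APLNR, CA4 and NPR3 had 763 and 643. HOXB7 was at 477 and 603 CPM in the SOX17-led and 443 and 405 in the APLNR-led clusters. Within the FGF10-marked cells of E20, HOXB5 stood at 312 and 270.3 CPM in the clusters led by PTGDS, ANGPT1 and HAS2, and at 126 and 129.9 CPM in those led by SCARA5 and C7. These clusters were named after their values were seen, and none of the differences was tested.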
